A study of Rattus norvegicus with 49 samples.

Results

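The nuclear genes for subunits and assembly factors of the mitochondrial respiratory chain were followed in rat thyroid after exposure to 131I. The genes were chosen by symbol, as those whose RefSeq symbol begins with Ndufa, Ndufb, Ndufc, Ndufs, Ndufv, Sdh, Uqcr, Cox4, Cox5, Cox6, Cox7, Atp5f or Atp5m, without the muscle isoform Cox7a1. This gave 77 of the 15154 symbols on the array, and all 77 were among the 25304 probes tested. They comprised 33 genes of complex I, 4 of complex II, 8 of complex III, 14 of complex IV and 10 of complex V, with 8 assembly factors. Another 36 of the 112 protein-coding genes that the rule names had no matched probe on the array. The prefixes also took in Cox6c-ps1, a pseudogene, and Ndufa4, which is counted here with complex I by its name but is now placed with complex IV.

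Male Sprague Dawley rats received a single injection of 131I at 5 weeks of age (young) or at 17 weeks of age (adult), and whole thyroid was profiled on Agilent SurePrint G3 microarrays with 1 dye, with each array deposited as a separate sample. Young rats given 50 kBq were examined 3, 6 and 9 months after injection, young rats given 0.5, 5 or 500 kBq at 9 months, and adult rats given 50 kBq at 3, 6 and 9 months. Untreated controls were 4, 7, 10 or 13 months of age and were matched to the exposed rats by age. The 49 arrays made up 13 groups, of which the 5 kBq group, the 7-month controls and the 13-month controls held 3 arrays each and the others 4. All rats shared strain and sex, and no group carried a transgene or another treatment in the labels.

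The respiratory chain sits in the inner mitochondrial membrane. Complexes I and II pass electrons from NADH and succinate to ubiquinone, complex III passes them on to cytochrome c and complex IV to oxygen, and complex V, the ATP synthase, uses the resulting proton gradient to make ATP. Most subunits are encoded in the nucleus and are made in fixed proportion to each other, and several complex IV subunits exist as tissue isoforms. Follicular thyrocytes make thyroid hormone, which is known to raise mitochondrial activity in many tissues, and skeletal muscle and brown fat, which lie near the thyroid in the neck, are rich in mitochondria.

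The promoters of 4 of the genes are shown, because most members moved together and because the tissue isoform Cox6a2 was the most variable of them. Each window is 300 bases of RefSeq sequence, build GRCr8, from 250 bases before to 50 bases after the annotated start, written in the direction of the gene. Capitals mark matches, on either strand, to motifs named for NRF1 (GCGCA, any base, then GCGC), ETS factors (CCGGAAG) and YY1 (AAGATGGCG), which are known regulators of nuclear genes for mitochondrial proteins. The windows lie at chr17:73333435-73333734 (plus strand) for Atp5f1c, chr4:161374121-161374420 (minus strand) for Ndufa9, chr19:65630133-65630432 (plus strand) for Cox4i1 and chr1:192219667-192219966 (minus strand) for Cox6a2.
Atp5f1c: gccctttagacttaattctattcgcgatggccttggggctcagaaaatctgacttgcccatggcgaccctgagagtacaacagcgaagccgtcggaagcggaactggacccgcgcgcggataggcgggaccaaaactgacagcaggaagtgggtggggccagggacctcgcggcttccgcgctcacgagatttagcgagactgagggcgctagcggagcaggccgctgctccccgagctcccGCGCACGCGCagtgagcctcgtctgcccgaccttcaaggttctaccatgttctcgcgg
Ndufa9: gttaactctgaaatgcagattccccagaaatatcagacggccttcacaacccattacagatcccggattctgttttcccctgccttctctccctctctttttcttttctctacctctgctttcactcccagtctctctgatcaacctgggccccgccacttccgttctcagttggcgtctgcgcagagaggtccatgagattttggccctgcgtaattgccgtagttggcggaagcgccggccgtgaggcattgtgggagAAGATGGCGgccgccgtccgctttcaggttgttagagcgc
Cox4i1: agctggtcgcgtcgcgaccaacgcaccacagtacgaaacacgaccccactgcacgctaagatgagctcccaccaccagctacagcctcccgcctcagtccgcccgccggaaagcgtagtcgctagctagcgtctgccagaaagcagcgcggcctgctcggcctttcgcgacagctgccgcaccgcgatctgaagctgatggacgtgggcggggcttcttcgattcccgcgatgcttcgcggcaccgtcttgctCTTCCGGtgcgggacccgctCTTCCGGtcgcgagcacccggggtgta
Cox6a2: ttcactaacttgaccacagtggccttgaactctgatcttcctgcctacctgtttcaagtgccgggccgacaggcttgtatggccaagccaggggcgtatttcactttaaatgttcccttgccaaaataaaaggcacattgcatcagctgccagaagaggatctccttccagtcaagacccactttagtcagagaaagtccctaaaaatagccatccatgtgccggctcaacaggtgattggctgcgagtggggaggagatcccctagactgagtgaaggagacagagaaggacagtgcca
Atp5f1c held an NRF1 motif, Ndufa9 a YY1 motif and Cox4i1 a pair of ETS motifs on the opposite strand, and none of the motifs was found in the window of Cox6a2. Motifs did not separate the genes by how they moved. None was found either in Atp5f1b and Cox5a, which moved with the other members. Ndufs7 and Uqcrq, which followed the others loosely, held a YY1 and an ETS motif. Of the 77 genes, 68 had a promoter in the RefSeq table. The NRF1 motif was found in 13 of the 68 windows (19.1%, against 4.25% of all 33469 windows of this length), the ETS motif in 22 (32.4%, against 8.75%) and the YY1 motif in 8 (11.8%, against 1.73%). At least 1 motif was present in 38 windows (55.9%), against 13.4% of all windows and 16.7% of the 21851 windows of protein-coding genes. A match is a string of letters and was not tested as a binding site.

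Some arrays stood apart, and results are given with and without them. The second array of the young 50 kBq group at 3 months had a 75th percentile of signal of 61.0, against 783.2 to 4172.3 on the other 48 arrays, and is called the low-signal array below. On the second array of the 7-month controls and the third of the young 50 kBq group at 3 months, 8 of 10 thyrocyte markers were lower and 12 of 13 skeletal muscle markers higher than on the other 46 arrays, the low-signal array left aside, which was itself higher than both for several muscle genes. Thyroglobulin (Tg), the hormone precursor that defines thyrocytes, was at −0.69 and 0.14 on these arrays, against 6.41 to 7.91 on the others. The third array of the adult group at 9 months nearly lacked muscle markers, with a median of −8.38 for the list. Finally, the first and second arrays of the 13-month controls differed by more than 1 log2 unit at 60 probes, and the first and second of the adult group at 6 months at 82 probes, whereas the next closest pair of arrays in the series differed at 304. Whether these pairs are repeat measurements of 1 thyroid is not given in the sources used here. Besides the 49-array fit, a fit of 44 samples was therefore made, without the low-signal array and the 2 arrays low in thyrocyte markers, and with each close pair averaged and counted once.

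Levels are given as log2 of the processed signal minus the 75th percentile of the array, so that a level of 3 lies 3 log2 units above that percentile. Levels of different genes come from different probes and were not set against each other. A gene was called in a comparison when the limma fit gave a Benjamini-Hochberg adjusted p below 0.01 over all probes and a fold change above 1.5. In whole tissue, fewer cells of a type and less RNA per cell cannot be told apart.

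Across the series, most respiratory chain genes moved as a block from array to array. After each gene was centred on its group means, 46 of the 77 genes correlated with the median of the other genes at r above 0.9 over the 48 arrays without the low-signal array, whereas 0.929% of all tested probes did so, and the median r of all probes was 0.04. The medians of the 5 complexes and of the assembly factors correlated with each other at 0.92 or more over the same arrays. These arrays share scaling and, in part, slides and scan days, and the correlations are descriptions. The spread between arrays of 1 group was as wide as the differences between most groups. With each gene centred on its mean over the 49 arrays, the median of the 77 genes averaged 0.07 ± 0.16 (SD, n = 4) in the 10-month controls but ranged from −0.54 to 0.97 among the 7-month controls, the highest of which was an array nearly without thyrocyte markers. It was lowest in the 13-month controls, at −0.58 ± 0.21 (SD, n = 3), and highest in the young 50 kBq group at 3 months, at 0.68 ± 0.37 (SD, n = 4).

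**Figure D1:**
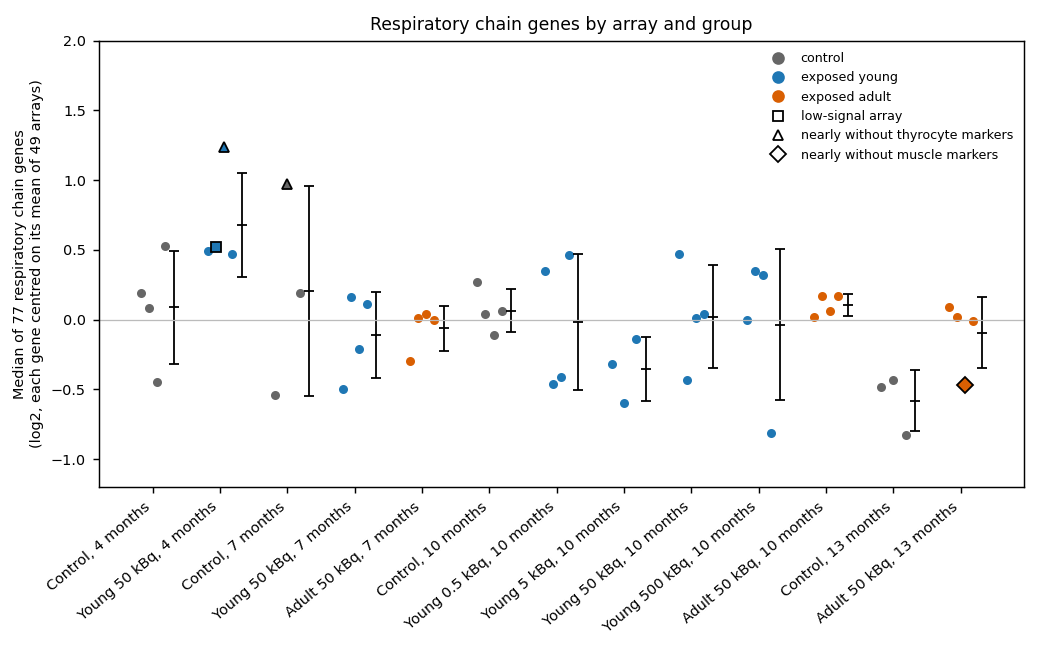
Median centred log2 level of the 77 respiratory chain genes on each of the 49 arrays (points), with mean ± SD per group. The 13-month controls lie between −0.83 and −0.43, and the 2 arrays nearly without thyrocyte markers (triangles) lie at 1.24 and 0.97.

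**Figure D2:**
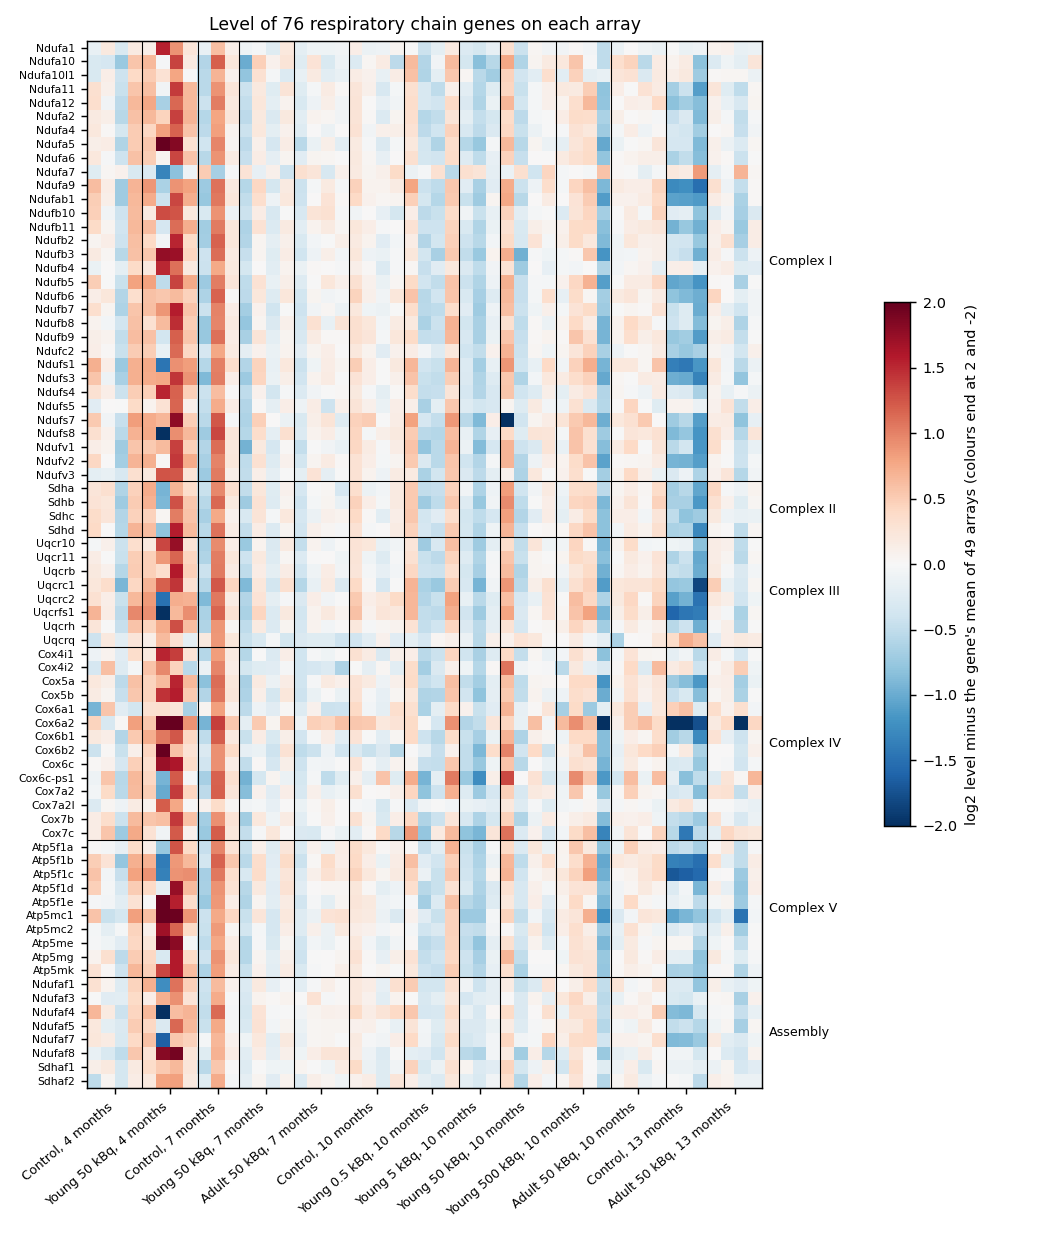
Centred log2 level of 76 of the 77 genes (rows, by complex) on each of the 49 arrays (columns, by group as labelled, replicates in order within a group). Columns are mostly of 1 colour from top to bottom, and Ndufa7, Uqcrq and Cox6a1 depart from their columns.

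Only in the comparison of untreated controls of 13 and 4 months of age were respiratory chain genes called in the 49-array fit. The question is how the thyroid of unexposed rats differed between these 2 ages. The centred median of the 77 genes averaged 0.09, 0.21 and 0.07 in the controls of 4, 7 and 10 months and −0.58 at 13 months. No steady fall of these means over the ages was seen, and the lowest mean was that of the 3 arrays of 13 months. Those arrays ranged from −0.83 to −0.43, and the lowest arrays of 4 and 7 months, at −0.45 and −0.54, lay within this range. The highest 7-month array, at 0.97, was nearly without thyrocyte markers. Called lower at 13 months were Atp5f1c and Atp5f1b, the gamma and beta subunits of the ATP synthase head, and Ndufa9, a complex I subunit near the ubiquinone site. These are 3 of 77 genes, against 2.1% of all probes called lower and 3.05% called higher. The median difference of the 77 genes was −0.67, and 69 of them were lower and 8 higher, whereas the median of all probes was 0.19. At an adjusted p below 0.05, 22 of the 77 genes passed, against 18.9% of all probes. The groups did not overlap for 29 genes that were lower at 13 months, against 12.8% of probes, and for 2 that were higher, against 21.5%. By complex, the median difference was −0.70 for complex I, −0.88 for complex II, −0.73 for complex III, −0.60 for complex IV, −0.58 for complex V and −0.41 for the assembly factors.

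In complex V, 2 of the genes called encode subunits of the catalytic head. Atp5f1c was at 4.60, 3.97, 3.56 and 4.83 in the 4-month controls and at 2.34, 2.39 and 2.48 in the 13-month controls. All 3 older arrays lay more than 1 log2 unit below the lowest younger array, and the difference was −1.84 (SE 0.41, limma with Benjamini-Hochberg adjusted p = 0.00376). Atp5f1b was at 4.05, 3.84, 2.79 and 4.28 at 4 months and at 2.21, 2.18 and 2.06 at 13 months, a difference of −1.59 (SE 0.41, limma adjusted p = 0.00891). The younger controls spread over more than 1 log2 unit, while the older arrays, among them the close pair, lay together. Atp5f1a, the alpha subunit of the same head, had a smaller difference of −0.60 (SE 0.32, limma adjusted p = 0.185), although its groups also did not overlap, at 6.65 to 7.18 and 6.15 to 6.35. Atp5mc1, which encodes a subunit of the rotating membrane ring, differed by −1.07 (SE 0.39, limma adjusted p = 0.0498), and its sister gene Atp5mc2, which encodes the same mature protein, by −0.34 (SE 0.29, limma adjusted p = 0.424).

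In complex I, Ndufa9 was at 3.56, 3.1, 2.23 and 3.63 in the 4-month controls and at 1.67, 1.72 and 1.43 in the 13-month controls. The groups did not overlap, and the difference was −1.52 (SE 0.39, limma with Benjamini-Hochberg adjusted p = 0.00841). Ndufs1, the large iron-sulfur subunit of the electron input module, was at 4.26, 3.68, 2.81 and 4.27 against 2.19, 2.13 and 2.39, a difference of the same size that missed the call (−1.52, SE 0.43, limma adjusted p = 0.0154). Every older array was below every younger one for Ndufs1 as well. Ndufv1, which binds NADH and the flavin, overlapped between the groups, with 4.34 to 5.60 against 3.88 to 4.68 (−0.70, SE 0.37, limma adjusted p = 0.172).

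In complex II, Sdha, the flavoprotein that oxidises succinate, was at 4.43, 4.51, 3.58 and 4.65 at 4 months and at 3.50, 3.63 and 3.14 at 13 months (−0.87, SE 0.33, limma with Benjamini-Hochberg adjusted p = 0.061). Its iron-sulfur partner Sdhb was at 4.12, 4.07, 3.14 and 4.35 against 3.19, 3.19 and 2.70 (−0.89, SE 0.40, limma adjusted p = 0.108). For both, the third 4-month array overlapped with the older controls. In complex III, Uqcrfs1, the Rieske iron-sulfur protein, was at 5.04, 4.51, 3.84 and 5.32 against 2.77, 2.92 and 2.96 (−1.79, SE 0.48, limma adjusted p = 0.0106), just outside the call with no overlap. The core proteins Uqcrc2 and Uqcrc1 differed by −1.33 (SE 0.41, limma adjusted p = 0.0216) and −1.13 (SE 0.41, limma adjusted p = 0.0496), and the third 4-month array, at 2.79, was the one within the older range for Uqcrc1.

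Complex IV differed less evenly. Cox5a, which lies on the matrix side of the enzyme, was at 4.35 to 5.46 at 4 months and at 3.72 to 4.17 at 13 months (−1.0, SE 0.35, limma with Benjamini-Hochberg adjusted p = 0.0422). Cox4i1, the regulatory subunit that is made in most tissues, was at 6.30, 6.48, 6.17 and 6.76 against 6.23, 6.34 and 5.86, so that the groups overlapped (−0.29, SE 0.30, limma adjusted p = 0.526). Cox6c, a small membrane subunit, also overlapped (−0.50, SE 0.32, limma adjusted p = 0.271). Among the assembly factors, Ndufaf7, a methyltransferase needed to build complex I, was at −1.81 to −1.11 against −2.38 to −2.25, with no overlap (−0.95, SE 0.30, limma adjusted p = 0.0249). A second probe of Ndufaf7 correlated with this one at 0.06 over the arrays, so the value belongs to the brighter probe alone.

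The 13-month controls also stood at the low edge of the whole series for some of these genes. All 3 lay below each of the other 46 arrays for Atp5f1c, Ndufa9 and Ndufb6, an accessory subunit of the complex I membrane arm, which is 3 of 77 genes against 1.58% of probes. Without the low-signal array, Atp5f1b, Ndufs1, Ndufs8, Uqcrfs1, Uqcrc2 and Ndufaf7 joined them, which made 9 genes against 2.93% of probes. The low-signal array is not in this comparison, but it was low for several of the same genes. Relative to its group-mates, its differences were −3.03 for Ndufs8, −2.88 for Uqcrfs1, −2.29 for Ndufs1 and −2.26 for Atp5f1c, but −0.01 for Ndufb6. The lowest difference of the 77 genes was −3.56, for Ndufaf4, which was not among those just named, while 9 genes were more than 1 log2 unit higher on this array. Over the 77 genes, its difference from its group-mates correlated with the difference between 13- and 4-month controls (r = 0.48, rho = 0.56; for 25297 probes r = 0.24, rho = 0.31). These are correlations across genes, which are not independent replicates, and the part of signal strength in the age difference was not tested. The 13-month controls themselves had 75th percentiles of signal from 1332.8 to 1440.8. These did not overlap with the 4-month controls (1737.6 to 3233.6) or the adults 9 months after 50 kBq (2426.2 to 3580.1). Only the low-signal array and the third array of the young 50 kBq group at 3 months, at 783.2, were lower.

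How many genes were called with age depended on the arrays in the fit. The 44-sample fit called 7 genes lower, against 2.98% of probes, with Uqcrfs1, Ndufs1, Uqcrc2 and Ndufaf7 joining Atp5f1c, Atp5f1b and Ndufa9. In it Atp5f1c differed by −1.82 (SE 0.37, limma adjusted p = 0.00134), and the median of the 77 genes was −0.76, with 4 genes higher. With the close pairs averaged but all other arrays kept, 0 genes were called (limma), against 0.0158% of probes. With only the 7 arrays of the 2 ages fitted, 0 were called as well, against 0% of probes. In the 49-array fit, 40 of 77 genes had an unadjusted p below 0.05 (limma), against 34% of probes. Within the first scan day, with 2 arrays against 2, Atp5f1c differed by −1.88, Atp5f1b by −1.81 and Ndufa9 by −1.78, and within the second, with 1 against 2, by −1.81, −1.36 and −1.21. Marker lists of neighbouring tissues moved as well. The 13 skeletal muscle markers had a centred median of −2.35, −2.32 and −2.28 in the 13-month controls, whereas 44 of the other arrays, all but the low-signal array and the one low in muscle, lay between −1.91 and 1.79, and the list differed by a median of −2.30 between the ages. The 10 thyrocyte markers were at 1.32, 1.35 and 0.96 in the 13-month controls and differed by a median of 1.67. None of the 13 muscle or 10 thyrocyte markers was called in the 49-array fit. The part of tissue composition in the age difference was not tested.

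**Figure D3:**
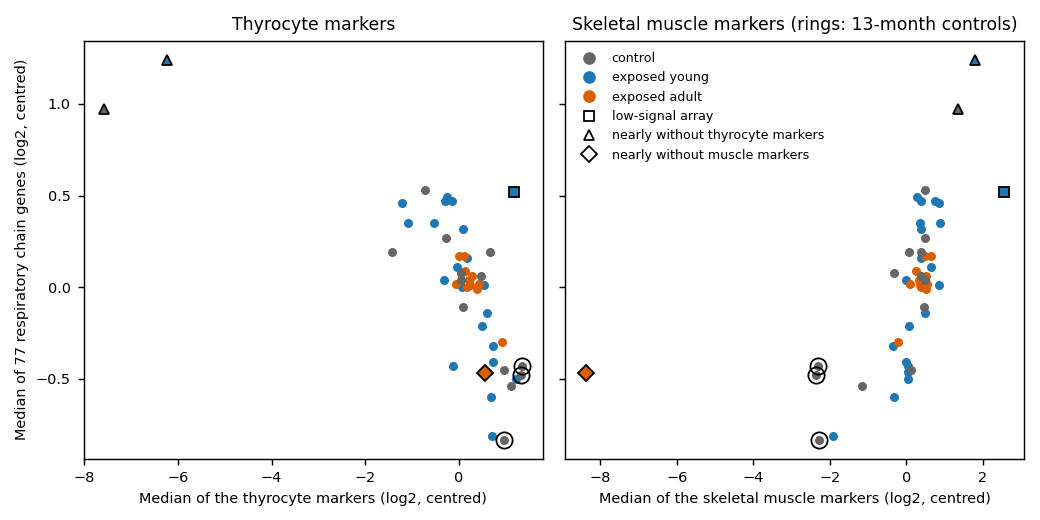
Median centred log2 level of the 77 respiratory chain genes (vertical) against the median of 10 thyrocyte markers (left) and 13 skeletal muscle markers (right) on each of the 49 arrays. The ringed 13-month controls lie at 0.96 to 1.35 for thyrocyte and at −2.35 to −2.28 for muscle markers.

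In adult rats 9 months after 50 kBq, at 13 months of age, the respiratory chain genes lay above those same 13-month controls. No gene was called in the 49-array fit, against 0.202% of probes called higher and 0.356% called lower, but 70 of the 77 differences were above 0, with a median of 0.52, whereas the median of all probes was −0.14. At an unadjusted p below 0.05, 29 genes passed, against 21.9% of probes, and at an adjusted p below 0.05 it was 3, against 4.78% of probes. The groups did not overlap for 33 genes that were higher in exposed rats, against 9.76% of probes, and for 1, Uqcrq, that was lower, against 16.4%. Uqcrq encodes a ubiquinone-binding protein of complex III. The median difference was 0.58 for complex I, 0.80 for complex II, 0.61 for complex III, 0.48 for complex IV, 0.38 for complex V and 0.25 for the assembly factors. This comparison shares its controls with the age comparison, so the same 3 low arrays enter both.

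Atp5f1c was at 4.01, 4.03, 3.30 and 4.13 in the exposed adults, against 2.34, 2.39 and 2.48 in their controls. The groups did not overlap, and the difference was 1.46 (SE 0.41, limma with Benjamini-Hochberg adjusted p = 0.035). Atp5f1b was at 3.90, 3.36, 3.07 and 3.71 against 2.21, 2.18 and 2.06 (1.36, SE 0.41, limma adjusted p = 0.0469), and Ndufa9 was at 3.27, 2.85, 2.47 and 2.96 against 1.67, 1.72 and 1.43 (1.28, SE 0.39, limma adjusted p = 0.0475). The third exposed array, which nearly lacked muscle markers, was the lowest for all 3 genes and was still above every control. In complex II, Sdhb was at 3.60 to 4.15 against 2.70 to 3.19 (0.86, SE 0.40, limma adjusted p = 0.193), and in complex III Uqcrfs1 was at 3.72 to 4.45 against 2.77 to 2.96 (1.34, SE 0.48, limma adjusted p = 0.0898). Cox4i1 of complex IV overlapped, at 6.07 to 6.55 against 5.86 to 6.34 (0.20, SE 0.30, limma adjusted p = 0.757).

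Without the low-signal array, which belongs to another group and enters only the shared estimate of spread, 3 genes were called higher, against 1.58% of probes. They were Atp5f1c (limma adjusted p = 0.00445), Atp5f1b (limma adjusted p = 0.00846) and Ndufaf7 (0.72, limma adjusted p = 0.00987). Without the array low in muscle markers, 1 gene was called, against 3.55% of probes. In the 44-sample fit 0 were called (limma), against 2.48% of probes, and 32 had an unadjusted p below 0.05, against 27.6%. Atp5f1c had an adjusted p of 0.0134 and Atp5f1b one of 0.0224 there, and the median of the 77 genes was 0.54. Within the first scan day, with 2 arrays against 2, the median was 0.47, and within the third slide, with 1 against 2, it was 0.25. With slide or scan day as a term it was 0.30 and 0.31. Beside the chain genes, the muscle list differed by a median of 0.62, the 6 brown adipocyte markers by 1.24 and the thyrocyte list by −0.81, and none of these markers was called. The 0.62 includes the third exposed array, at −8.38 for the muscle list. The exposed arrays reached 0.54 and the controls were at −2.35 to −2.28. The muscle marker Acta1 was at 6.76, 6.85, −3.17 and 6.71 in exposed rats and at 2.99, 2.99 and 3.56 in controls. The part of these lists in the difference was not tested.

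**Figure D4:**
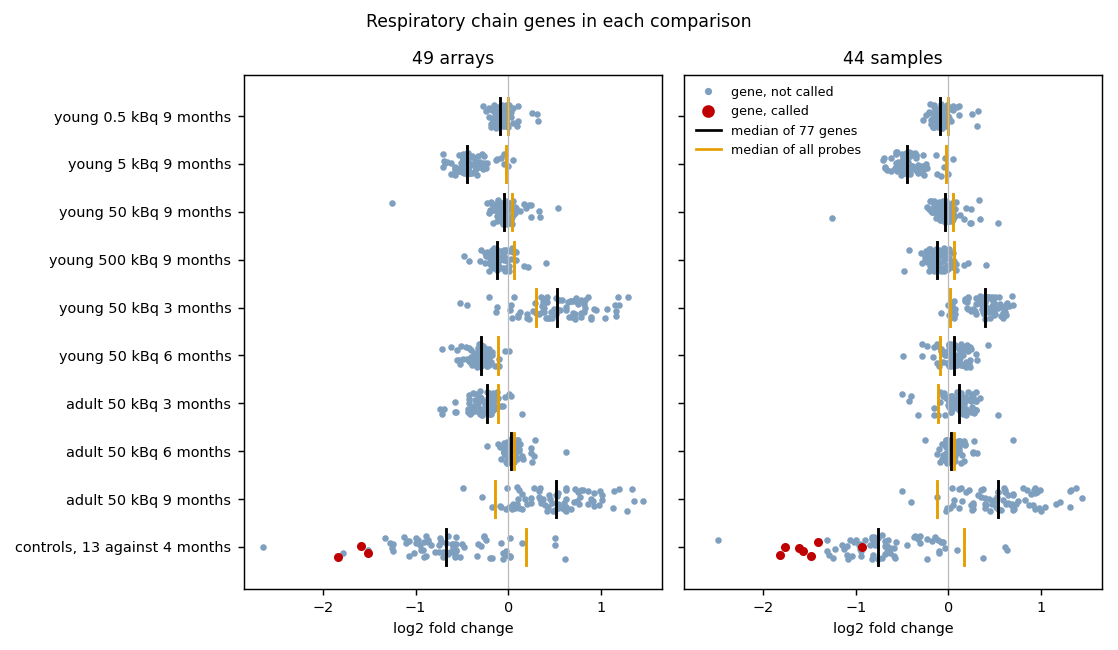
Log2 fold change of each of the 77 genes (points) in the 9 comparisons with controls and in the age comparison, from the 49-array fit (left) and the 44-sample fit (right). Called genes are larger points, with 3 on the left and 7 on the right, all lower in the 13-month controls.

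At 3 months after 50 kBq in young rats the differences pointed upwards, with 72 of 77 genes above 0 and a median of 0.53, against 0.30 for all probes. Quantile normalization reduced the median to 0.09, against −0.08 for all probes, and with normexp background correction, which models the background again from the raw spot signal, it was 0.18 and below the 0.55 of all probes. In the 49-array fit 0 genes were called (limma), against 0.0158% of probes, and 37 had an unadjusted p below 0.05, against 37.9% of probes. At an adjusted p below 0.05, 20 of the 77 genes passed, against 17.9% of probes, and 6 genes were higher without overlap, against 3.97%. The smallest p belonged to Ndufaf8, a complex I assembly factor, at 3.93, 5.48, 5.57 and 3.91 in exposed rats and 3.51, 3.35, 3.15 and 4.20 in controls (1.17, SE 0.28, limma adjusted p = 0.0219), and to Ndufa1, an accessory subunit of complex I, at 5.19, 6.60, 5.97 and 5.31 against 4.92, 5.26, 4.76 and 5.25 (0.72, SE 0.20, limma adjusted p = 0.0234). In both genes the high values came from the low-signal array and the array nearly without thyrocyte markers.

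The same 2 arrays were high for other genes of that group. Cox6c was at 8.11 and 7.99 on them and at 6.71 and 6.75 on the remaining pair, against 6.04 to 6.85 in the controls, and Atp5mc1 was at 7.99 and 7.64 on them and at 6.27 and 6.55 on the remaining pair, against 5.23 to 6.49. Without the low-signal array no probe passed an adjusted p of 0.05 in this comparison (limma), 50 of the 77 genes had an unadjusted p below 0.05, against 22% of probes, and the difference of Ndufaf8 was 0.92 (limma adjusted p = 0.147). The median of the 77 genes was then 0.65, with 76 genes above 0, whereas the median of all probes was 0.10. The 44-sample fit gave a median of 0.40 with 76 genes above 0, against 0.02 for all probes, with 0 genes called (limma) and 1 at an unadjusted p below 0.05, against 9.8% of probes. That fit holds 2 exposed arrays of this group, whose spread is taken to be that of the other groups. Markers of neighbouring tissues ranged higher on the exposed arrays as well, with the low-signal array and the one nearly without thyrocyte markers included. The cartilage list was at 2.38 to 4.52 against −1.05 to 2.13 in the controls, with no overlap. The muscle list, at 0.27 to 2.54 against −0.32 to 0.49, and the brown adipocyte list, at 0.11 to 0.75 against −0.75 to 0.33, overlapped. The thyrocyte list was at −6.23 to 1.18 against −1.43 to 0.97. Their part in the difference was not tested.

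At 9 months after injection in young rats, the 5 kBq group stood below its controls across nearly the whole chain. No gene was called (limma), against 0.0119% of probes, and none had an unadjusted p below 0.05, against 1.82% of probes, but 76 of the 77 differences were below 0, with a median of −0.45, against −0.02 for all probes. The 3 exposed and 4 control arrays did not overlap for 32 genes, all lower, against 6.84% of probes. Complexes I to V had medians of −0.43, −0.48, −0.44, −0.48 and −0.48, and the assembly factors −0.28. With quantile normalization the median of the 77 genes was −0.24. Of the single genes, Ndufb6 was at 4.21, 3.86 and 4.26 in exposed rats and at 4.96, 4.62, 4.45 and 4.74 in controls (−0.58, SE 0.30, limma adjusted p = 1). The exposed arrays were all below the controls for this gene. Within the first scan day, with 1 array against 3, the median was −0.74, and within the third, with 1 against 1, it was −0.03. The 75th percentile of signal was 3628.6 to 3653.1 in the 5 kBq group and 1842.1 to 2802.5 in the controls, with no overlap. About group means, the median of the 77 genes correlated at −0.52 with that percentile over the 48 arrays without the low-signal array. The part of signal strength was not tested. The thyrocyte list was at 0.59 to 0.72 in the 5 kBq group and at −0.27 to 0.47 in the controls, and the muscle list at −0.34 to 0.50 and 0.39 to 0.49. The brown adipocyte list was at −0.92 to −0.26 in the 5 kBq group and at 0.08 to 0.68 in the controls, again with no overlap. Their part in the difference was not tested.

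At the other activities the medians at 9 months lay nearer to 0. Medians of the 77 genes were −0.09 at 0.5 kBq, −0.04 at 50 kBq and −0.12 at 500 kBq, against 0.00, 0.04 and 0.06 for all probes. No gene was called (limma), where 0%, 0.0119% and 0% of probes were, and 0, 1 and 0 genes had an unadjusted p below 0.05, against 0.929%, 1.41% and 1.63% of probes. All 4 activities were compared with the same 4 controls. The spread within these exposed groups was wide, with array medians from −0.46 to 0.46 at 0.5 kBq and from −0.81 to 0.35 at 500 kBq, so a difference of the size seen at 5 kBq would lie inside it. The smallest p at 50 kBq belonged to Ndufs7, an iron-sulfur subunit of complex I, which was at 0.68, 4.05, 4.50 and 4.59 against 4.90, 4.95, 4.43 and 4.59 (−1.26, SE 0.51, limma adjusted p = 1). The difference rests on the first exposed array. At 0.5 kBq the smallest p-values belonged to Ndufa7 (−0.27, SE 0.25) and Ndufa10 (0.31, SE 0.36), both accessory subunits of complex I, and at 500 kBq to Cox6a1 (−0.42, SE 0.28) and Cox6b2 (0.41), both isoforms of small complex IV subunits.

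At the intermediate times the sign of the shift depended on 1 control array. Against all 3 controls of 7 months, the median difference was −0.29 in young rats 6 months after 50 kBq, with 76 genes below 0, and −0.23 in adult rats 3 months after 50 kBq, with 74 below 0. The median of all probes was −0.11 in both, and both comparisons share their controls. No gene was called (limma), where 0% of probes were called in either, and 1 gene in young and 2 in adult rats had an unadjusted p below 0.05, against 6.55% and 4.73% of probes. The groups did not overlap for 3 genes that were lower in young rats, Uqcrq, Cox6a1 and Cox7a2l, against 6.16% of probes, and for 2 in adults, Uqcrq and Cox4i2, against 7.22%. Once the control nearly without thyrocyte markers was left out in the 44-sample fit, the medians became 0.06, with 57 genes above 0, and 0.12, with 63 above 0. Uqcrq had the smallest p in both, at −2.92, −2.24 and −2.89 in the controls, −3.40, −3.35, −3.35 and −3.53 in the adults and −3.56, −3.42, −3.15 and −3.46 in the young rats. Both exposed groups lay below all controls, by −0.72 each (SE 0.20, limma adjusted p = 0.836 in adults and 0.471 in young rats). The control nearly without thyrocyte markers was the highest, at −2.24. In the 44-sample fit, without it, Uqcrq differed by −0.50 in adults and −0.49 in young rats. Cox4i2, the isoform of Cox4i1 that is known from lung and from low oxygen, had the next smallest p. Its differences were −0.74 (SE 0.30, limma adjusted p = 0.997) in adults and −0.55 (limma adjusted p = 0.797) in young rats. The same control was at −0.30 for Cox4i2, against −1.39 and −1.13 on the others, and in the 44-sample fit the difference in adults was −0.42. In adult rats 6 months after 50 kBq the median was 0.03, against 0.06 for all probes, and 0 genes were called (limma), where 0% of probes were, or had an unadjusted p below 0.05, against 0.79% of probes. Cox6b2, an isoform known from testis, was there at 0.76, 1.15, 1.33 and 1.40 against 0.64, 0.48, 0.63 and 0.37, the only gene higher without overlap, against 2.6% of probes (0.63, SE 0.35, limma adjusted p = 1). Ndufa7 alone was lower without overlap, against 1.47%, and Ndufb10, an accessory subunit of complex I, differed by 0.29 (SE 0.28).

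Whether the 50 kBq effect at 9 months differed between young and adult rats was tested as an interaction. The median difference, young minus adult, was −0.56 for the 77 genes and 0.19 for all probes, and 68 of 77 genes were below 0. The centred median of the 77 genes averaged 0.02 in exposed young and −0.09 in exposed adult rats, against 0.07 and −0.58 in their controls. The exposed groups thus lay closer together than their controls, and the low 13-month controls enter this difference too. With slide as a term the median difference was −0.25. No gene was called (limma, smallest adjusted p = 0.206), where 0% of probes were, and 12 had an unadjusted p below 0.05, against 13.3% of probes. For the effect in young rats at 9 months minus that at 3 months the median was −0.54, against −0.25 for all probes, and again no gene was called (limma, smallest adjusted p = 0.263), where 0% of probes were, with 24 at an unadjusted p below 0.05, against 17.5% of probes. This median was −0.08 with quantile normalization, against 0.09 for all probes, and −0.20 with normexp, where the median of all probes, at −0.55, lay below that of the chain genes.

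Among the 77 genes, 7 followed the others loosely, with r under 0.6 over the 48 arrays about group means. The most variable was Cox6a2, the heart and skeletal muscle isoform of a complex IV subunit, with an SD about group means of 1.34 and r of 0.55. It was at 6.77, 6.01, 6.35 and 7.14 in the 4-month controls and at 3.50, 3.69 and 4.57 in the 13-month controls, the largest age difference of the 77 genes and one with a wide error (−2.65, SE 0.99, limma adjusted p = 0.0541). It was at −1.22 on the adult array nearly without muscle markers, against 6.50 to 6.74 on its group-mates, and at 8.51 and 8.46 on the low-signal array and the exposed array low in thyrocyte markers. The liver-type partner Cox6a1, which is made in most tissues, correlated with the other chain genes at 0.44 and was at 5.22, 6.70, 5.93 and 5.78 at 4 months and 6.63, 6.74 and 5.89 at 13 months (0.51, limma adjusted p = 0.228). The members of this isoform pair therefore had age differences of opposite sign, and neither was called.

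**Figure D5:**
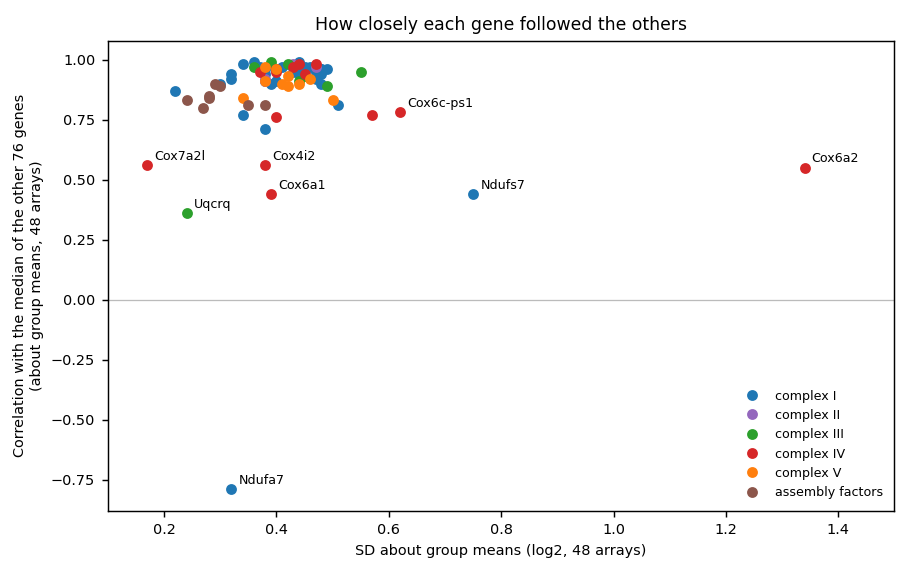
For each of the 77 genes, the SD of its log2 level about group means (horizontal) and its correlation with the median of the other 76 genes (vertical), over the 48 arrays without the low-signal array. Most genes lie above 0.9, Ndufa7 lies at −0.79, and Cox6a2 has the widest spread, at 1.34.

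Ndufa7, a small subunit of complex I, ran opposite to the rest, at r = −0.79, where 9.92% of all probes lay below −0.7. It was at −1.53, −1.26, −1.21 and −1.60 in the 4-month controls and −1.09, −1.13 and −0.44 in the 13-month controls, so that it was higher without overlap (0.51, limma adjusted p = 0.168). Uqcrq (r = 0.36) was higher as well, at −3.53, −2.92, −3.32 and −2.86 against −2.75, −2.38 and −2.52 (0.61, limma adjusted p = 0.0316), and lower in the exposed adults at 9 months (−0.49, limma adjusted p = 0.14). Both were dim probes, below the 75th percentile on every array. Cox4i2 (0.56), Cox7a2l (0.56) and Ndufs7 (0.44) were the remaining genes. Cox7a2l, which encodes a factor for joining complexes III and IV, was also the steadiest gene of complex IV, with an SD of 0.17, and differed by 0.15 with age (limma adjusted p = 0.576), whereas its relative Cox7a2, a complex IV subunit, differed by −0.59 (limma adjusted p = 0.288). Of the other isoform pairs, Cox6b1 differed with age by −0.91 (limma adjusted p = 0.0458) and the testis form Cox6b2 by 0.02 (limma adjusted p = 0.987). Cox7b and Ndufa4, whose isoforms had no probe, differed by −0.75 (limma adjusted p = 0.0721) and −0.57 (limma adjusted p = 0.117).

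Genes of neighbouring pathways were read from fixed lists. Over the 48 arrays the median of the 77 genes correlated at 0.99 with that of 8 other electron transfer and ATP synthase genes, at 0.96 with 23 other assembly genes, at 0.95 with 14 genes of the tricarboxylic acid cycle and at 0.87 with 10 regulators of mitochondrial biogenesis. Between the ages these lists differed by medians of −0.66, −0.36, −0.89 and −0.15, with 1, 1, 1 and 0 genes called lower and 0 called higher, against 2.1% and 3.05% of all probes. In the exposed adults at 9 months their medians were 0.40, 0.24, 0.74 and 0.09, with 0 genes called, and at 5 kBq they were −0.41, −0.18, −0.48 and −0.17, with 0 called. Among cell type lists, the chain median correlated at −0.75 with the thyrocyte, 0.56 with the skeletal muscle and 0.73 with the brown adipocyte list, and at 0.58 with the cartilage, −0.60 with the C cell and −0.57 with the parathyroid list. Cox8b, one of the brown adipocyte markers, is also among the 8 electron transfer and ATP synthase genes. Without the 2 arrays nearly lacking thyrocyte markers these values were −0.76, 0.53, 0.75, 0.52, −0.44 and −0.31 over 46 arrays. With the 75th percentile of signal the chain median correlated at −0.35 over the 48 arrays and at −0.21 over the 46. The points share the array scaling, so that lists which rise and fall in opposite proportion are tied to each other.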

How the data were processed

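Thyroid total RNA was labelled with Cy3 and hybridised to 49 Agilent SurePrint G3 Rat 8x60K arrays. The authors deposited 1 scanner file per array from Agilent Feature Extraction 10.7.3.1 (per the submitters' processing notes), whose processed signal, an intensity per spot, already had background subtracted but carried no scaling from array to array. They also deposited, in other units, marks of 0 or 1 per spot for a signal well above background and for outliers. A further list that they deposited holds fold changes on a log2 scale from their own comparisons and was not used here.

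Control spots and outlier spots were left out, and from the log2 of the processed signal the array's own 75th percentile was taken away, with spots of 1 probe averaged. Of 30367 probes, 17998 were matched to a RefSeq symbol through their accession. Where a gene had several probes, as 17 of the 77 genes did, the brightest over the 49 arrays was used. Probes well above background on at least 3 arrays were kept. Group means were estimated in R 4.3.3 by limma 3.58.1 (prior degrees of freedom 2.22), with Benjamini-Hochberg adjustment over all 25304 probes, after the same script had been tested on simulated data. Tables and plots were made with the R package data.table (1.17.8), Python 3.11.15, pandas 2.3.3, numpy 2.4.6 and matplotlib 3.10.9. The 12 contrasts were the 9 exposed groups against controls of the same age, the controls of 13 against 4 months and 2 interactions. P-values measure the spread between these arrays, and the number of arrays limits the precision.

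The genes, lists and marker genes were chosen with earlier results of these data known. Genes named are those called, the 2 with the smallest unadjusted p in each comparison, the most and least variable gene of each complex, 14 core subunits and the isoform pairs, and any other gene was named with its values in view. For 1 of the 77 genes, which stays in all counts and medians, the values are not reported here. Alternatives were quantile normalization, normexp background correction (offset 50, on the median spot signal), 2 other filters, probes averaged, slide, scan day or replicate number as a term, adjusted p below 0.05, fewer groups in the fit, array weights and each array left out in turn. The fits without the low-signal array, without the 2 arrays low in thyrocyte markers, without the array low in muscle markers, with close pairs averaged and with 44 samples were chosen after seeing the data. Replicate numbers were checked as pairs by the correlation of deviations from group means. They paired in young rats 6 months after 50 kBq alone, where 3 pairs gave r from 0.19 to 0.36, and the labels give no shared litter or day.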

Additional observations from a re-analysis of the deposited data

Results flagged for a closer look

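For 44 values (the 77-gene and complex medians and the genes named by rule), each of the 10 groups of 4 arrays was examined for an array far from its group-mates by Dixon's ratio, and 34 of 440 cases passed. Chance alone gives about 1 in 20. All levels are log2 levels as in the report, and no explanation was tested.

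The low-signal array of the young 50 kBq group at 3 months gave 8 of them. It was lowest of its group for Atp5f1b (2.17), Atp5f1c (2.68), Ndufa9 (2.31), Uqcrfs1 (2.31), Uqcrc2 (2.54), Ndufs1 (2.09) and the assembly factor Ndufaf4 (−2.61), and highest for the testis isoform Cox6b2 (3.55). The third array of that group, nearly without thyrocyte markers, was highest for the median of all 77 genes (1.24), for the complex V median (1.57), for Ndufv1 (6.41) and for Cox7b (6.34), and the fourth was lowest for Cox6a1 (5.50).

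In the adult group at 9 months, the array nearly without muscle markers was lowest for the muscle isoform Cox6a2 (−1.22, with group-mates from 6.50 to 6.74), the complex V median (−0.65), Atp5f1c (3.30) and Cox6c (6.00). The first array of that group was lowest for Uqcrq (−3.33) and highest for Sdhc (3.00). In the adult group at 3 months, the first array was lowest for the median of all 77 genes (−0.30), the complex I median (−0.30), the assembly factor median (−0.10) and Ndufa1 (4.87). In the adult group at 6 months, the fourth array was highest for Ndufaf4 (0.79) and the second for Cox7a2 (5.03).

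Among young rats at 9 months, the fourth array at 500 kBq was lowest for Cox6a2 (3.76) and Cox7b (4.06) and highest for Ndufa7 (−0.73). At 50 kBq, the first array was highest for Cox4i2 (−0.21) and lowest for Ndufs7 (0.68, with group-mates from 4.05 to 4.59). In the 10-month controls, the first array was highest for the complex III median (0.26) and the third lowest for Cox7a2l (3.80). In the 4-month controls, the third array was lowest for Sdhaf1 (2.68) and Uqcrc1 (2.79).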

How the results depend on the processing

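No gene changed the sign of its difference in the comparison that named it, under any alternative. The age comparison called 3 genes, against 5.15% of probes. Beside the percent of probes called, it called 8 genes with quantile normalization (5.81%), 1 with normexp (2.13%), 1 with no filter (3.39%), 4 with the stricter filter, above background throughout a group (7.35%), 4 with probes averaged (5.15%), 12 with slide (12.8%) and 8 with scan day (9.4%) as a term, 22 at adjusted p below 0.05 with (17.7%) or without (18.9%) the fold threshold, 0 with only the 2 groups (0%), 37 with array weights (35.6%), 13 without the low-signal array (16%), 9 without the arrays low in thyrocyte markers (10%), 0 with close pairs averaged (0.0158%), 7 with 44 samples (10.2%) and 5 without the array low in muscle markers (7.1%). With the replicate number as a block it called 1 (3.09%), and the block changed no other count. Leaving out 1 array gave 0 to 13. The counts were 0 without replicate 1 or 4 of the 4-month or replicate 1 or 2 of the 13-month controls, 1 without replicate 2 of the former or 3 of the latter, 11 without replicate 3 of the 4-month controls, 6 without replicate 1 or 2 of the 7-month controls and 7 without replicate 4 at 500 kBq. At 3 months in young rats 0 genes were called, and 19 at adjusted p below 0.05 with the fold threshold (16.9% of probes) and 20 without it (17.9%). Leaving out 1 array gave 0 to 16, with 16 without replicate 1 and 14 without replicate 4 of the exposed group. In adults at 9 months 0 were called, and 3 at adjusted p below 0.05 with (4.53%) or without (4.78%) the fold threshold, 32 with array weights (31.1%), 3 without the low-signal array (4.47%) and 1 without the array low in muscle markers (3.55%), with 0 to 3 over single arrays left out. For the young minus adult interaction array weights called 21 against 0 (23.5% of probes against 0%). For most fits with 1 array left out, the percent of probes called is not set beside the count. Those counts are therefore not read as results about the chain genes. The cause of the changes in count was not tested. The counts of the other 8 comparisons were 0 in every fit.

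The median of the 77 genes kept its sign over all settings and single arrays left out at 5 kBq (−0.54 to −0.24), at 3 months in young rats (0.09 to 0.65), in adults at 9 months (0.30 to 0.66) and with age (−0.88 to −0.50), and crossed 0 under some setting, or, at 0.5 kBq, when 1 array was left out, in the other 6 comparisons with controls. For the interactions it ran from −0.72 to −0.25 (young minus adult) and from −0.72 to −0.08 (9 minus 3 months). Normexp moved the median of all probes to 0.36 from 0.19 with age, to 0.55 from 0.30 at 3 months in young rats and to −0.39 from −0.14 in adults at 9 months.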
